A study of Homo sapiens with 8 samples.

Results

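The mucin genes followed here were 10 rows of the deposited count table of 57169 rows, those named MUC1, MUC2, MUC3A, MUC4, MUC5AC, MUC5B, MUC6, MUC12, MUC13 and MUC20. They were matched by gene symbol, and all 10 stood at the position that GENCODE release 29 gives them on GRCh38. The family was selected on earlier results of these data, the counts of MUC2 and MUC13 with AFZC against 5-FU in HCT116 among them, so those rises are described below without a test. All 10 genes passed the filter on low counts and were among the 21378 genes tested.

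Mucins are long proteins whose central part is a run of repeats rich in serine and threonine, and sugars attached to those residues make up much of the mass of the mature molecule. Gel-forming mucins are secreted by goblet and other mucous cells and give mucus its structure, and MUC2 is the main one of the healthy colon, whereas MUC5AC and MUC6 belong to the stomach and MUC5B to the airways and salivary glands. Transmembrane mucins such as MUC1, MUC3A, MUC4, MUC12 and MUC13 stay on the cell surface, where they form part of the glycocalyx and can bind growth factor receptors.

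The study treated 2 human colorectal carcinoma lines for 24 hours and measured polyadenylated RNA by sequencing without keeping the strand. SW620, derived from a lymph node metastasis, and HCT116, derived from a primary colon tumour, each received AFZC or 5-fluorouracil (5-FU), the thymidylate synthase inhibitor used against this cancer. According to the title of the study, the nanodrug is a metal-organic framework that carries 5-FU and bears an aptamer on its surface. Each agent was given at its own IC50 in each line, and the sources used here do not give the doses. The 4 groups, SW620 with AFZC, SW620 with 5-FU, HCT116 with AFZC and HCT116 with 5-FU, had 2 libraries each, and each treatment difference is AFZC relative to 5-FU, as untreated cells are not analysed here. Both lines are tumour cells in culture, not colonic tissue.

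The libraries held 31991561 to 40590291 counts. The summed level of 6 epithelial markers ran from 2583 to 13710 counts per 1e6 counts (CPM), so the labelled epithelial origin was borne out in all 8 libraries, although VIL1 was at most 1.96 CPM in HCT116 and KRT20 at most 2.88 CPM in HCT116 and in SW620 with 5-FU. Counting noise was exceeded between the 2 libraries of every group (chi-square of 20.9 to 51.5 per degree of freedom), and none was a copy of another. The labels do not say whether they are separate cultures, and the spread that p-values measure may therefore be technical. Levels below are CPM scaled with TMM factors, and a gene was called where its p from edgeR's quasi-likelihood test, adjusted by Benjamini-Hochberg over all genes tested, was under 0.05. Ratios of counts pooled over a group have 95% exact binomial intervals that cover counting error only and are too narrow if both mates of a read pair were counted, a pattern the libraries show: each had 1.68 to 1.84 genes with 2 counts for every gene with 1.

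Several mucin genes are neighbours. On chromosome 11, MUC6 (1012821 to 1036706, minus strand) is followed by MUC2 (1074875 to 1110511), MUC5AC (1157953 to 1201138) and MUC5B (1223066 to 1262172), all on the plus strand, with gaps of 38168, 47441 and 21927 bases. On chromosome 7, MUC3A (100949555 to 100968346) and MUC12 (100969623 to 101018949) lie 1276 bases apart on the plus strand. On chromosome 3, MUC20 (195720882 to 195741123, plus strand) and MUC4 (195746765 to 195812277, minus strand) lie 5641 bases apart. MUC13 stands alone on chromosome 3 (124905442 to 124953819, minus strand), and MUC1 on chromosome 1 (155185824 to 155192916, minus strand).

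The repeats that make a protein a mucin can be read in the transcripts, and they bear on how reads of these genes are counted. A search of the longest transcript of each gene in GENCODE 29, for periods of 15 to 600 bases at an identity of at least 80%, found repeats in MUC1, MUC2, MUC3A, MUC4, MUC5AC, MUC5B, MUC13 and MUC20, with periods of 60, 69, 51, 48, 24, 87, 48 and 171 bases, each a whole number of codons. It found none in MUC6 and MUC12, but that holds only for these settings. In MUC12, 49.7% of the 100-base windows recur within the transcript. The windows with the highest identity between neighbouring copies gave the following units, printed 5′ to 3′ in lower case for the tumour-associated transmembrane mucins MUC1 and MUC4, the colonic MUC2 and the gastric MUC5AC.
MUC1 repeat unit, 60 bases: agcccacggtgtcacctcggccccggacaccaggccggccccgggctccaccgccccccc
MUC2 repeat unit, 69 bases: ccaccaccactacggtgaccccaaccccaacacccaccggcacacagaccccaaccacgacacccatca
MUC4 repeat unit, 48 bases: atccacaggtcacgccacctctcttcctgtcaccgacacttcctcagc
MUC5AC repeat unit, 24 bases: ctcctacaaccagcacaacctctg
The repeats covered 63.7% of the MUC1 transcript, 33.7% of that of MUC2, 57.4% of that of MUC4 and 22.6% of that of MUC5AC. The unit lies in the coding span in MUC1, MUC4 and MUC5AC, while the MUC2 transcript has no coding span in this annotation and the gene is tagged there as touched by an error of the reference genome.

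The start regions of MUC2, MUC13 and MUC4 are shown because these genes differed most between the lines in their response to AFZC. RefSeq promoter windows (GRCh38.p14, 250 bases before to 50 after the start site) were found for 6 of the 10 genes, MUC1, MUC2, MUC3A, MUC4, MUC12 and MUC13. The MUC13 window lies inside the gene as counted, whose 5′ end in GENCODE 29 is at base 124953819. It is therefore not the outermost start of that gene. Capitals mark matches on either strand. The motifs searched for were the GC box, read as GGGCGG, and the TATA box, read as TATAAA. Sites of CDX factors were read as TTTATG, sites of GATA factors as AGATAA and the E-box as CACGTG. The AP-1 site was read as TGA and TCA with any base between them, and the p53 half-site by its usual consensus.
MUC2 promoter, chr11:1074624-1074923, plus strand: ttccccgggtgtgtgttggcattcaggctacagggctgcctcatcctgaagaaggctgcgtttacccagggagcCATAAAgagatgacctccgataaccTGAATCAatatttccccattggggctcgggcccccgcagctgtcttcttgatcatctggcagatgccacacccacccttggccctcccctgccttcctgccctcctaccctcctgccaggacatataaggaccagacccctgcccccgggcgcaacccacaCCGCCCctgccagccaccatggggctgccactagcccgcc
MUC13 promoter, chr3:124934702-124935001, minus strand: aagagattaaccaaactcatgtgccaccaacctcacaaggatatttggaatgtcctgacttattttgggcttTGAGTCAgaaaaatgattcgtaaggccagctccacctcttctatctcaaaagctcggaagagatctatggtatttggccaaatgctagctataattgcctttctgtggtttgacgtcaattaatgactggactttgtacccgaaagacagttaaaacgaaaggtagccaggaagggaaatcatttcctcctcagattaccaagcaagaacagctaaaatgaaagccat
MUC4 promoter, chr3:195811880-195812179, minus strand: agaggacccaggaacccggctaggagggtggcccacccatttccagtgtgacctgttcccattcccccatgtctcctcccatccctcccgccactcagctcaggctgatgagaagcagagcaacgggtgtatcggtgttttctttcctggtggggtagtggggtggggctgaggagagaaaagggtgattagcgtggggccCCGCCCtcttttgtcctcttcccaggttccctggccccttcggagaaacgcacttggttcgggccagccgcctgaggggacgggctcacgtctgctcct
The MUC2 window held a CDX match that begins 176 bases before the start site, an AP-1 match that begins 151 bases before it and a GC box after it. The MUC13 window held a single match, an AP-1 site that begins 178 bases before the start site, and MUC4 held 1 GC box. Of 35116 promoters, 10.6% held the CDX letters, 7.71% those of the AP-1 site and 45% a GC box. The GC box is thus common, and the CDX and AP-1 letters are less so. Whether a factor binds at any of these matches was not tested. The GC content of the windows was 62% for MUC2, 41% for MUC13 and 62% for MUC4, against a median of 58.7% over all promoters.

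The lines differed widely in how much mucin mRNA they held and in which genes made it up. The 10 genes summed to 376 ± 66.8 CPM in SW620 with AFZC, 263 ± 31.1 in SW620 with 5-FU, 29.4 ± 7.03 in HCT116 with AFZC and 29 ± 6.1 in HCT116 with 5-FU (mean ± SD, n = 2 each). Genes are compared with each other per kilobase of exon. All exon bases enter, also repeated or shared ones whose reads may not be counted alike, so shares and ranks are approximate. On this scale MUC13 was first in SW620, at 80.8 ± 14.7 CPM per kb with AFZC and 55.8 ± 7.08 with 5-FU. It made up 88.4% of the summed CPM per kb of the 10 genes under AFZC and 85.3% under 5-FU, and MUC1 came next with 6.07% and 10.2%.

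In HCT116 no single gene held such a share. Under AFZC the first was MUC3A at 1.25 ± 0.217 CPM per kb, 40% of the summed CPM per kb, followed by MUC13 with 16.4%, MUC20 with 12.4% and MUC2 with 10.4%. Under 5-FU the first were MUC20 at 1.04 ± 0.0754 and MUC3A at 1.01 ± 0.00766 CPM per kb, whose libraries overlapped, with 33.3% and 32.7% of the sum. MUC2 and MUC13 held 0.145% and 0.576% of the sum there. The summed CPM per kb was 3.14 ± 0.55 under AFZC and 3.12 ± 0.373 under 5-FU in HCT116. The make-up of the pool thus differed between the treatments at nearly the same total. This is a description only: the shift lies largely in MUC2 and MUC13, whose rises were known when the family was picked. It also lies in MUC20, whose value is uncertain, as given below.

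**Figure D1:**
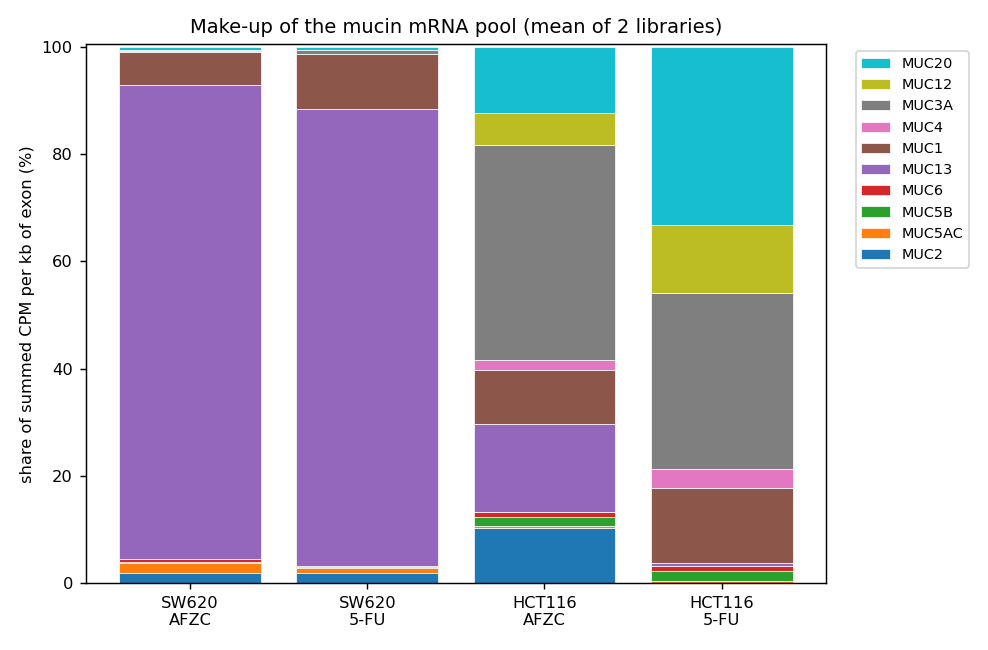
Stacked bars give the mean share (%) of each of the 10 genes in their summed CPM per kb of exon, for the 4 groups with 2 libraries each. MUC13 fills 88.4% and 85.3% of the bars of SW620 with AFZC and with 5-FU, while MUC3A, MUC20 and several others share those of HCT116.

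MUC2 was the gel-forming mucin that stood furthest apart between the treatments in HCT116. SW620 libraries held 29.5 and 17.6 CPM of MUC2 with AFZC and 12.8 and 18.1 CPM with 5-FU. HCT116 libraries held 6.68 and 2.05 CPM with AFZC, from 252 and 74 counts, against 0.0577 and 0.0562 CPM with 5-FU, from 2 counts in each library. The SW620 libraries overlapped between treatments, whereas in HCT116 both AFZC libraries lay far above both 5-FU libraries. By pooled counts MUC2 was 77.7-fold higher with AFZC in HCT116 (30 to 287), and the fitted log2 fold change was 6.18 ± 0.786 (SE), with 5.08 without replicate 1 of AFZC and 6.76 without replicate 2. In SW620 it was 0.60 ± 0.44, with an adjusted p of 0.379 in edgeR's test.

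MUC5AC was a gene of SW620. It reached 22.3 and 34.0 CPM with AFZC and 8.02 and 15.1 CPM with 5-FU in SW620, and no more than 0.225 CPM in any HCT116 library, where 12 counts with AFZC and 9 with 5-FU were found in all. Its SW620 libraries did not overlap between treatments, and the log2 fold change was 1.28 ± 0.38 (edgeR, adjusted p = 0.036). In HCT116 it was 0.34 ± 0.859, from counts too few for a direction.

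MUC6 was also higher in SW620 than in HCT116. SW620 libraries held 7.74 and 2.09 CPM of MUC6 with AFZC and 0.861 and 1.06 CPM with 5-FU, and HCT116 libraries held 0.212 and 0.222 CPM with AFZC and 0.144 and 0.393 CPM with 5-FU. Both SW620 libraries with AFZC were above both with 5-FU, replicate 1 by far, and the log2 fold change was 2.35 ± 0.601 (edgeR, adjusted p = 0.0171). The HCT116 libraries overlapped, with a log2 fold change of -0.31 ± 0.782.

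MUC5B, the next gene along chromosome 11, was at 0.583 to 2.11 CPM in every library, and all neighbouring groups in the order of levels overlapped. Its log2 fold changes were -0.04 ± 0.576 in SW620 and -0.06 ± 0.59 in HCT116, with adjusted p of 0.988 and 0.987 in edgeR's test. Of the 4 genes of this cluster, MUC6 and MUC5AC rose in SW620, MUC2 was higher with AFZC in HCT116 (given without a test) and MUC5B was called in neither line.

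**Figure D2:**
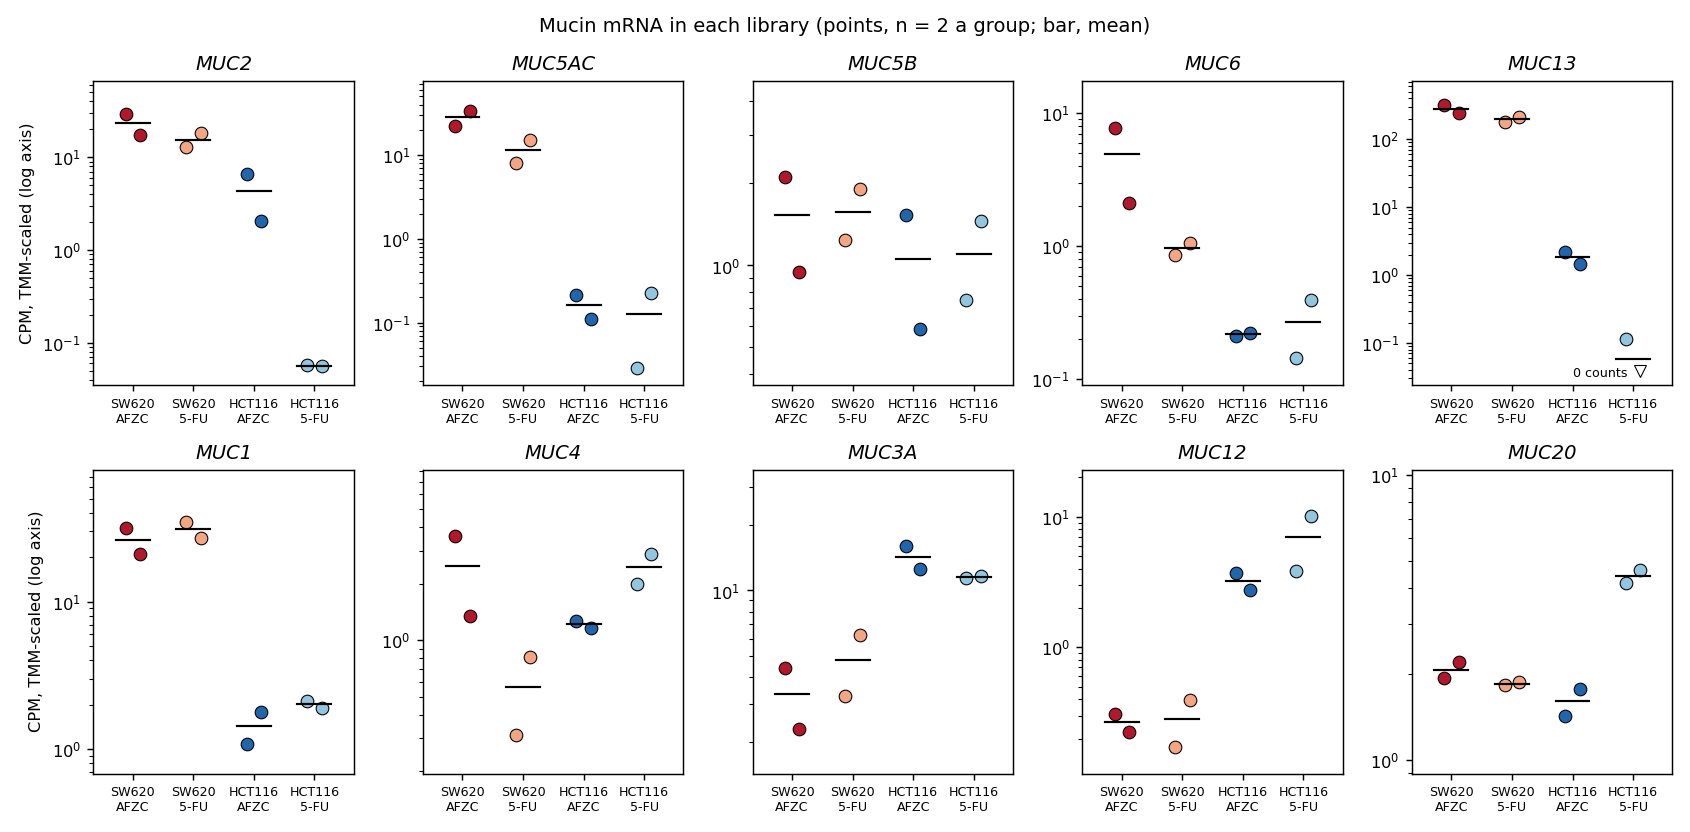
Each panel gives the CPM of 1 mucin gene (log axis) in the 8 libraries, with points for the 2 libraries of a group and a bar for their mean; an open triangle marks a library without counts. MUC2 and MUC13 in HCT116 are separated by treatment, at 2.05 to 6.68 and 1.44 to 2.2 CPM with AFZC, while MUC5B overlaps in all groups.

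Among the transmembrane mucins, MUC13, a gut surface mucin with EGF-like domains, was the most abundant in SW620, while MUC3A stood above it per kilobase in HCT116. SW620 libraries held 319 and 247 CPM with AFZC and 178 and 213 CPM with 5-FU. HCT116 libraries held 2.2 and 1.44 CPM with AFZC, from 83 and 52 counts, against 0.115 and 0 CPM with 5-FU, from 4 and 0 counts. The treatments did not overlap in either line. By pooled counts MUC13 was 32.2-fold higher with AFZC in HCT116 (12.3 to 120), and the fitted log2 fold change was 4.92 ± 0.565. It was 3.92 without replicate 2 of 5-FU, the library at 0, and 8.99 without replicate 1, which leaves 5-FU with 0 counts and the fitted size to the prior count. In SW620 it was 0.54 ± 0.229, and the adjusted p of 0.126 in edgeR's test missed the threshold.

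MUC4, which forms a complex with ERBB2 at the cell membrane, was low in both lines. SW620 libraries held 3.6 and 1.34 CPM with AFZC and 0.310 and 0.816 CPM with 5-FU, while HCT116 libraries held 1.27 and 1.17 CPM with AFZC and 1.99 and 2.89 CPM with 5-FU. The treatments did not overlap in either line but were in opposite order. The log2 fold change was 2.11 ± 0.579 in SW620 (edgeR, adjusted p = 0.0238) and -1 ± 0.538 in HCT116 (adjusted p = 0.28).

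MUC20, a mucin of the cell surface reported to bind the receptor MET, was called lower in HCT116. HCT116 libraries held 1.43 and 1.78 CPM with AFZC, against 4.18 and 4.63 CPM with 5-FU, and SW620 libraries held 1.94 and 2.2 CPM with AFZC and 1.83 and 1.87 CPM with 5-FU. HCT116 with 5-FU stood above all other groups, and the log2 fold change was -1.46 ± 0.353 in HCT116 (edgeR, adjusted p = 0.0213) and 0.16 ± 0.355 in SW620 (adjusted p = 0.803). The value of MUC20 is uncertain, because it shares 1820 exon bases, 42.8% of its exons, with MUC20-OT1 on the same strand, and 58.1% of its 100-base windows also occur in MUC20-OT1 or in the pseudogene MUC20P1. Neither of those was called in HCT116: MUC20-OT1 had 1048 and 874 counts with AFZC and 970 and 1173 with 5-FU, and MUC20P1 had 29 and 22 with AFZC and 50 and 52 with 5-FU. MUC20P1 was thus lower with AFZC, as MUC20 was, with a log2 fold change of -1.07 ± 0.504 (edgeR, adjusted p = 0.211). Whether the MUC20 difference can be separated from that of MUC20P1 was not tested.

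MUC1, the widely expressed epithelial mucin, was at 31.7 and 21.2 CPM in SW620 with AFZC and 35 and 27.0 CPM with 5-FU. In HCT116 it was at 1.09 and 1.78 CPM with AFZC and 2.13 and 1.91 CPM with 5-FU. The SW620 libraries overlapped between treatments and those of HCT116 did not, and neither log2 fold change passed the test, at -0.23 ± 0.262 in SW620 and -0.50 ± 0.315 in HCT116 (edgeR, adjusted p of 0.596 and 0.363).

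MUC3A and MUC12, neighbouring membrane mucins of the intestinal brush border, were higher in HCT116 than in SW620. HCT116 libraries held 16 and 12.5 CPM of MUC3A with AFZC and 11.5 and 11.6 CPM with 5-FU, and SW620 libraries held 4.39 and 2.29 CPM with AFZC and 3.27 and 6.25 CPM with 5-FU. For MUC12 the HCT116 libraries held 3.68 and 2.75 CPM with AFZC and 3.83 and 10.2 CPM with 5-FU, and no SW620 library exceeded 0.393 CPM. Neither gene was called between treatments, with log2 fold changes in HCT116 of 0.31 ± 0.343 for MUC3A and -1.12 ± 0.465 for MUC12 (edgeR, adjusted p of 0.647 and 0.153). MUC12 counts rest on a repetitive gene, as 49.7% of its 100-base windows recur within the transcript.

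**Figure D3:**
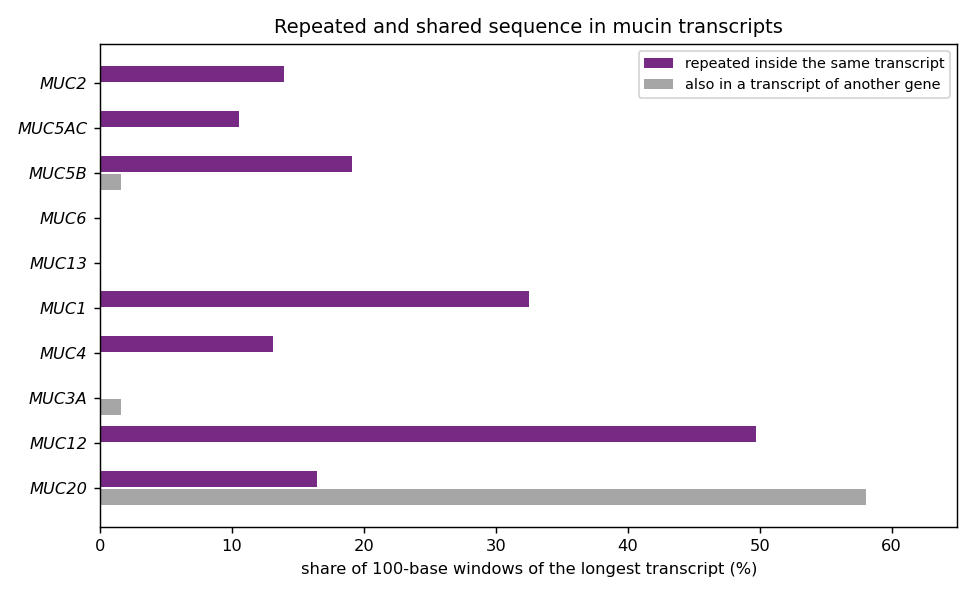
Bars give, for each mucin gene, the share (%) of 100-base windows of its longest transcript that recur within the same transcript and the share also found in a transcript of another gene. MUC12 has the highest share repeated inside, 49.7%, and MUC20 the highest share found elsewhere, 58.1%, while both shares are 0 in MUC6 and MUC13.

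Counted over the family, AFZC against 5-FU in SW620 gave 3 genes higher (MUC4, MUC5AC and MUC6), 0 lower and 7 not called (4 higher and 0 lower at an unadjusted p under 0.05, and the same 3 genes by DESeq2), where 18.6% of all genes tested were called, 11.6% higher and 6.95% lower. In HCT116 it gave 2 higher (MUC2 and MUC13), 1 lower (MUC20) and 7 not called, where 9.61% of all genes were called, 5.87% higher and 3.74% lower. As the genes were picked with results of these contrasts known, nothing is read from these counts. The median log2 fold change of the 10 genes was 0.35 in SW620 and -0.18 in HCT116, beside 0.026 and 0 over all genes tested. The SW620 calls depended on single libraries: MUC4 and MUC6 lost theirs without replicate 1 of AFZC (adjusted p of 0.221 and 0.308), MUC5AC lost its call without replicate 2 of AFZC (0.157), all 3 lost it without replicate 1 of 5-FU (0.0969 to 0.212), and MUC6 also without replicate 2 of 5-FU (0.092). Over these fits the log2 fold change ran from 1.24 to 2.98 for MUC4, from 0.90 to 1.81 for MUC5AC and from 1.13 to 3.01 for MUC6. In HCT116, MUC20 did not pass the threshold without replicate 1 of AFZC or either 5-FU library (adjusted p of 0.122 to 0.152).

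**Figure D4:**
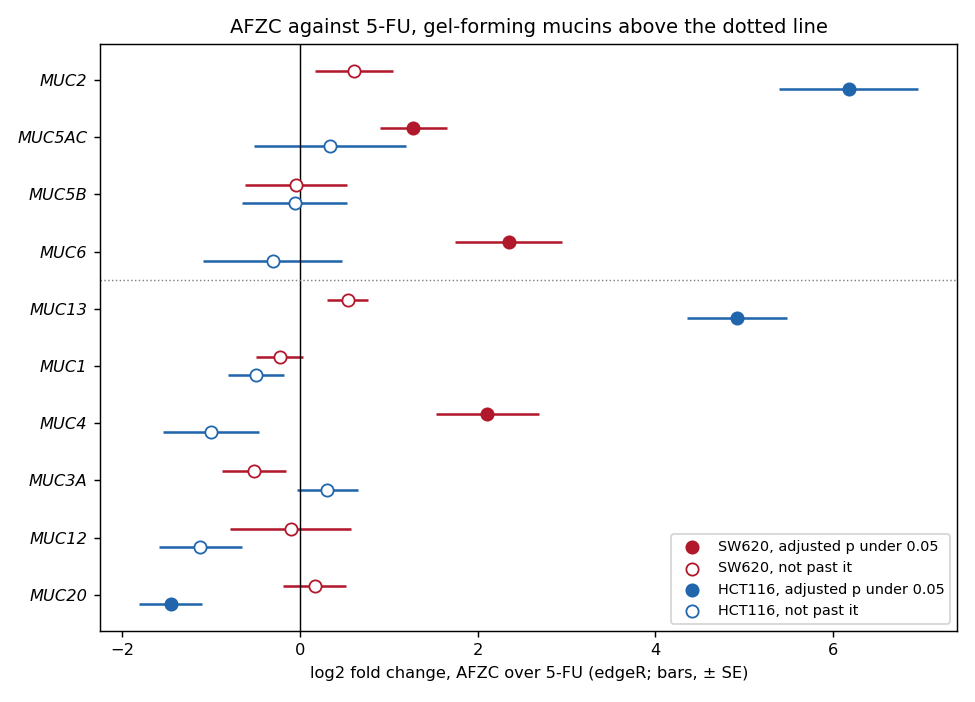
Points give the log2 fold change of AFZC over 5-FU for each mucin gene (edgeR, bars ± SE) in SW620 and HCT116, filled where the adjusted p was under 0.05. MUC2 and MUC13 in HCT116 stand at 6.18 and 4.92, and MUC4, MUC5AC and MUC6 are filled in SW620.

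The order of the replicates and the values of other genes are set beside these results. In SW620, replicate 1 of AFZC held more than replicate 2 for 8 of the 10 mucins, and replicate 2 of 5-FU more than replicate 1 for 9. In HCT116 the same order held for 7 mucins with AFZC and 7 with 5-FU. The share over all genes was not determined, so nothing particular to mucins is read from this order. LYZ, named after its values were seen, was at 40.5 and 15.7 CPM with AFZC and 5.37 and 7.70 CPM with 5-FU in SW620, and it made up most of the summed level of 6 leukocyte markers, 16.4 to 42.5 CPM with AFZC and 5.78 to 8.16 CPM with 5-FU. PTPRC and CD3E had 0 counts in both SW620 libraries with AFZC. The 4 endothelial markers summed to 13.6 to 18.3 CPM with AFZC and 5.26 to 5.51 CPM with 5-FU in SW620, mostly VWF, with KDR at 0 counts in every SW620 library. The 6 fibroblast markers summed to 49.3 to 81.5 CPM with AFZC and 52.8 to 57.3 CPM with 5-FU in SW620, mostly LUM and COL1A1, with COL1A2, COL3A1 and DCN at 4 counts or fewer in each library. PDGFRB, the sixth of them, rose to 9.91 and 9.15 CPM with AFZC, against 2.10 and 2.30 CPM with 5-FU (log2 fold change 2.11 ± 0.323, edgeR, adjusted p = 0.000864). The 6 epithelial markers summed to 4005 to 4475 CPM with AFZC and 12540 to 13710 CPM with 5-FU there, most of it KRT8 and KRT18. KRT20 went the other way, with 29.1 and 12.8 CPM with AFZC and 2.31 and 2.42 CPM with 5-FU in SW620 (log2 fold change 3.15 ± 0.418, edgeR, adjusted p = 0.000326). The part of these genes in the mucin results was not tested. In bulk RNA, fewer cells that express a gene and less RNA per cell cannot be told apart.

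In HCT116 the leukocyte, endothelial and fibroblast markers summed to 0.424 to 0.805, 5.27 to 5.35 and 53.1 to 59.7 CPM with AFZC and to 0.605 to 0.758, 4.5 to 5.56 and 44.6 to 45.6 CPM with 5-FU. PTPRC had at most 2 counts in any HCT116 library, and COL1A1 made up most of the fibroblast sum. Within these sums PDGFRB was called higher in HCT116, with 45 and 38 counts with AFZC and 16 in each 5-FU library (edgeR, adjusted p = 0.0461), and KDR was called lower, with 5 and 4 counts with AFZC and 47 and 58 with 5-FU (0.0167). PECAM1 had 19 and 29 counts with AFZC and 6 and 8 with 5-FU and missed the threshold (0.0628). These single markers are named after their values were seen. VIL1, which encodes the brush border protein villin and was named after its values were seen, had 74 and 28 counts with AFZC and 4 and 0 with 5-FU in HCT116, a log2 fold change of 4.51 ± 0.758 (edgeR, adjusted p = 0.00578). TFF3, a peptide secreted with mucins, and LUM, a fibroblast marker, had 0 counts in all 4 HCT116 libraries, against 1866 to 2470 and 749 to 1535 counts in SW620 with AFZC and 1255 to 1561 and 806 to 998 with 5-FU.

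The difference between the lines in their response was tested as an interaction, the AFZC effect in SW620 minus that in HCT116. MUC4 differed by 3.11 ± 0.791 on the log2 scale (edgeR, adjusted p = 0.0273), and MUC2 and MUC13 by -5.57 ± 0.952 and -4.38 ± 0.65, given without a p as they include the HCT116 rises known when the family was picked. Of all genes tested, 9.78% were called, 5.65% higher and 4.14% lower. For MUC13 the value was -8.46 when HCT116 with 5-FU lacked its replicate 1 and -3.38 when it lacked its replicate 2. MUC6, at 2.66 ± 0.987, and MUC20, at 1.62 ± 0.499, missed it with adjusted p of 0.11 and 0.059, and the remaining 5 genes lay between -0.82 and 1.02. MUC4 lost its call without any 1 of 5 libraries (adjusted p of 0.051 to 0.109), and its value ran from 2.26 to 3.98 over the 8 fits that each left out 1 library.

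Set against HCT116, SW620 had more of 5 mucins under either treatment. Under AFZC the log2 differences, SW620 minus HCT116, were 7.40 for MUC5AC, 7.27 for MUC13, 4.48 for MUC6, 4.21 for MUC1 and 2.43 for MUC2, and MUC3A and MUC12 were lower at -2.09 and -3.58. Under 5-FU they were 11.66 for MUC13, 8 for MUC2, 6.46 for MUC5AC, 3.94 for MUC1 and 1.82 for MUC6, while MUC12, MUC4, MUC3A and MUC20 were lower at -4.59, -2.09, -1.27 and -1.25. MUC2 and MUC13 are given without a p here too, as their HCT116 counts were known when the family was picked. Adjusted p of the other genes called ran from 2.66e-07 to 0.000392 under AFZC in edgeR's test. Under 5-FU it ran from 2.96e-07 to 0.0396. The counts of genes called below include MUC2 and MUC13. By pooled counts MUC13 was 155-fold higher in SW620 under AFZC (130 to 184) and 3450-fold higher under 5-FU (1350 to 12700), where HCT116 had 4 counts in 1 library and 0 in the other. Under AFZC 7 genes were called, 5 higher and 2 lower, beside 49.3% of all genes tested, 25.1% higher and 24.2% lower. Under 5-FU 9 were called, 5 higher and 4 lower, beside 54.8% of all genes, 26.5% higher and 28.2% lower. MUC5B was called under neither treatment. Under 5-FU, leaving out 1 library of that treatment could end the calls of MUC6 (adjusted p up to 0.242), MUC3A (up to 0.0829), MUC4 (up to 0.0669) and MUC20 (up to 0.052).

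**Figure D5:**
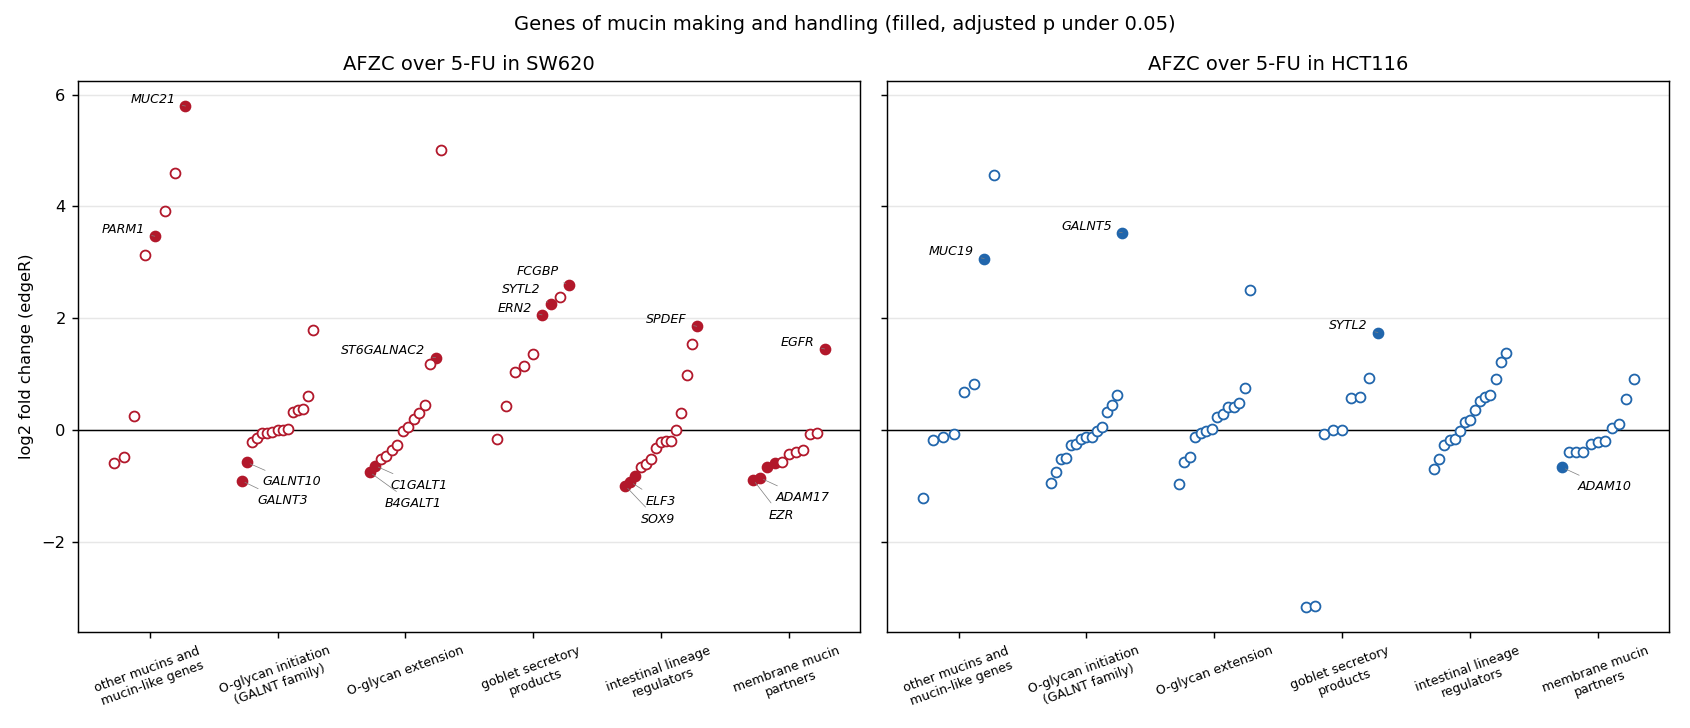
Points give the log2 fold change of AFZC over 5-FU (edgeR) for the tested genes of 6 lists around mucins, in SW620 and in HCT116, filled where the adjusted p was under 0.05. Fitted values of open points at the extremes come from genes with a few counts, and the named genes include GALNT5 at 3.53 in HCT116 and PARM1 at 3.47 in SW620.

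The counts of called genes in the lists that follow stand beside 11.6% of all genes called higher and 6.95% lower in SW620, and 5.87% and 3.74% in HCT116. Of 14 further mucin and mucin-like genes in the table, 8 passed the filter on low counts. In SW620, 2 of these rose and 0 fell, and DESeq2 called 2 higher and 1 lower. No median is given, because 4 of the 8 had 3 counts or fewer under 5-FU. MUC21, a transmembrane mucin of squamous epithelia, had 113 and 27 counts with AFZC and 0 and 2 with 5-FU. It was 61-fold higher by pooled counts (16.6 to 508) and was called (edgeR, adjusted p = 0.00452). HCT116 libraries held at most 4 counts of MUC21, so it passed the low-count filter only through the group where it is high. Its call is therefore not read as support. PARM1, a mucin-like membrane protein first described in prostate, had 72 and 108 counts with AFZC and 4 and 10 with 5-FU (3.47 ± 0.376, adjusted p = 7.24e-05). In HCT116, 1 rose and 0 fell by edgeR, and DESeq2 called 2 higher and 0 lower. The gene called by edgeR was MUC19, a gel-forming mucin of salivary glands, with 235 and 326 counts under AFZC and 18 and 46 under 5-FU (log2 fold change 3.07 ± 0.535, edgeR, adjusted p = 0.00496). MUC21 lost its call without replicate 1 of AFZC in SW620 (adjusted p = 0.09), and MUC19 without replicate 1 of 5-FU in HCT116 (0.0943).

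The sugars of mucins are started by the GALNT enzymes, which attach N-acetylgalactosamine to serine or threonine. Of 15 tested, 1 rose and 0 fell in HCT116, with 2 higher and 3 lower at an unadjusted p under 0.05, the same by DESeq2, and a median log2 fold change of -0.13. GALNT5 was at 135 and 181 CPM there with AFZC, against 12.2 and 15.2 CPM with 5-FU, and the 2 treatments were far apart, with a log2 fold change of 3.53 ± 0.226 (edgeR, adjusted p = 7.94e-06). In SW620, GALNT5 was at 38.6 and 55.6 CPM with AFZC and 39.0 and 34.1 CPM with 5-FU, which overlapped, while GALNT3 and GALNT10 had log2 fold changes of -0.90 and -0.57 (adjusted p of 0.0172 and 0.026). No GALNT gene was called higher in SW620 by edgeR or DESeq2, and 1 was at an unadjusted p under 0.05. No median is given for SW620, where GALNT13 and GALNT14 had 0 counts in every library.

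Of 14 tested enzymes that extend the sugar chains, 0 were called in HCT116 by edgeR or DESeq2, 1 was higher at an unadjusted p under 0.05, and the median log2 fold change was 0.13. In SW620 the median was 0.018, DESeq2 called 1 higher and 3 lower, and by edgeR 1 rose and 2 fell: ST6GALNAC2, a sialyltransferase, rose by 1.3 on the log2 scale, C1GALT1, which makes the core 1 structure, fell by 0.63, and B4GALT1, a galactosyltransferase, fell by 0.75 (edgeR, adjusted p of 0.037, 0.0189 and 0.0136). C1GALT1C1, the chaperone that C1GALT1 needs, was at 31.1 and 25.7 CPM with AFZC and 28.4 and 26.2 CPM with 5-FU in SW620, which overlapped.

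Of 15 listed products of goblet cells, 9 passed the filter on low counts. CLCA1, SPINK4 and RETNLB, which did not, had 0 counts in every library. Of the 9 tested, 3 rose and 0 fell in SW620 (6 and 0 at an unadjusted p under 0.05, 4 and 0 by DESeq2). Their median log2 fold change was 1.37 beside 0.026 over all genes, with KLK1 at -0.15 and not called. As the list was chosen with earlier results of these data known, nothing is read from these counts about goblet products as a set. FCGBP, a protein bound to the MUC2 gel, was at 13.7 and 5.97 CPM with AFZC and 1.38 and 1.87 CPM with 5-FU, a log2 fold change of 2.59 ± 0.363 (edgeR, adjusted p = 0.000553). SYTL2, which acts in vesicle secretion, and ERN2, the stress sensor of mucus-secreting cells, rose by 2.26 and 2.06 (adjusted p of 0.00108 and 0.0142). In HCT116, where TFF1, TFF2, TFF3 and AGR2 had 2 counts or fewer in each treatment, 1 of the 9 was called, SYTL2, at 38.3 and 34.2 CPM with AFZC and 8.56 and 13.1 CPM with 5-FU (log2 fold change 1.75 ± 0.32, adjusted p = 0.00565). FCGBP there was at 24.0 and 23.5 CPM with AFZC and 22.6 and 27.4 CPM with 5-FU.

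Of 15 tested regulators of intestinal lineage, 1 rose and 3 fell in SW620 by edgeR, and DESeq2 called 3 higher and 5 lower there, with a median log2 fold change of -0.22 (ATOH1, at 0 counts in every SW620 library, included). In HCT116 edgeR called 0, with 3 higher and 1 lower at an unadjusted p under 0.05, DESeq2 called 2 higher, and the median was 0.19. SPDEF, the factor that drives maturation of goblet cells, was at 4.73 and 3.13 CPM with AFZC and 0.826 and 1.33 CPM with 5-FU in SW620 (log2 fold change 1.86 ± 0.478, edgeR, adjusted p = 0.0176), whereas HCT116 libraries held at most 11 counts of it. SOX9 and ELF3, factors of crypt and epithelial cells, fell in SW620, with log2 fold changes of -0.99 and -0.92 (adjusted p of 0.002 and 0.0321). CDX2, an activator of MUC2 in intestine, was at 48.3 and 36.2 CPM with AFZC and 48.9 and 47.9 CPM with 5-FU in SW620, and at 21.0 and 23.4 CPM with AFZC and 23.7 and 20.9 CPM with 5-FU in HCT116, so its libraries overlapped in both lines. CDX2 and C1GALT1C1 were named after their values were seen.

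Of 11 partners of transmembrane mucins, 1 rose and 4 fell in SW620 by edgeR, and DESeq2 called 1 higher and 5 lower there and 1 higher and 1 lower in HCT116, with a median log2 fold change of -0.43 there and -0.22 in HCT116. EGFR rose to 17.1 and 35.6 CPM with AFZC, against 9.09 and 10.2 CPM with 5-FU (log2 fold change 1.45 ± 0.301, edgeR, adjusted p = 0.00807). EZR, which links membrane proteins to actin, and ADAM17, a protease that sheds MUC1, fell by 0.88 and 0.85 (adjusted p of 0.00733 and 0.00474). In HCT116, 1 of 11 was called, ADAM10, another sheddase, which fell by 0.66 (adjusted p = 0.0338). Of the 16 genes named for SW620 in these lists, 11 lost their call without at least 1 library and PARM1, FCGBP, SYTL2, SOX9 and ADAM17 did not, and of the 4 named for HCT116 only GALNT5 did not. With library sizes in place of TMM factors, GALNT3, GALNT10, C1GALT1, B4GALT1, ELF3, EZR and ADAM17 were no longer called in SW620.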

How the data were processed

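The deposited file is one table of unnormalized counts, a line per gene symbol and a column per library, laid out as featureCounts writes it. Per the submitters' processing notes, the build was GRCh38 and the aligners HISAT2 and STAR were both in use; which of them made the counts, and how reads with several alignments were treated, the sources used here do not give. Per the labels' protocols, RNA was selected with oligo(dT) and libraries did not keep the strand, so reads from overlapping genes of opposite strands cannot be separated. Among the mucins, MUC3A shares 739 exon bases (6.5% of its exons) with AC254629.1 on the opposite strand. MUC5B shares 434 (2.33%) with MUC5B-AS1, and MUC12 shares 194 (1.13%) with AC105446.1.

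The mucin genes, the gene lists around them and the motifs were chosen with earlier results of these data known. Counts were read with the data.table package (1.17.8) in R 4.3.3, filtered with filterByExpr at a minimum count of 10 (21378 of 57169 genes left), scaled with TMM factors (0.816 to 1.11) and fitted with edgeR 4.0.16 (limma 3.58.1), in a robust quasi-likelihood model of 4 group means with 4 residual degrees of freedom. Tests were two-sided, adjusted by Benjamini-Hochberg over all genes tested, with a threshold of 0.05; standard errors were derived from the F statistic (size of the log2 fold change divided by its square root). Levels are CPM as each library's value or mean ± SD. All 10 mucins are named whatever their result, and from each other list the up to 3 called genes with the largest change per treatment comparison; LYZ, VIL1, TFF3, LUM, CDX2, C1GALT1C1 and HNF4A, other single markers and the copies of MUC20 are named besides. Alternatives were DESeq2 1.42.0, its size factors in edgeR, library sizes alone, no filter, a fit of 1 line or 1 treatment alone, the replicate number as a block, and leaving out each library. The steps were tested on simulated counts. Transcripts and positions are from GENCODE 29, read with Python.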

Additional observations from a re-analysis of the deposited data

Results flagged for a closer look

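The AFZC effect differed between the lines, by the interaction term of edgeR's quasi-likelihood test at an adjusted p under 0.05, for MUC4 and for 8 of the genes named from the lists around the mucins. MUC2 and MUC13 are given with them as a description, since their difference holds the HCT116 change on which the family was chosen. All values are the log2 fold change of AFZC over 5-FU in SW620 minus that in HCT116. For the mucins they were -5.57 for MUC2, 3.11 for MUC4 and -4.38 for MUC13. The values of MUC2 and MUC13 rest on 5-FU libraries of HCT116 with 4 counts in all for each gene, and those of MUC4 on at most 128 counts in any library.

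Among the other genes, the difference was 3.59 ± 0.44 for PARM1 and -3.17 ± 0.298 for GALNT5 (adjusted p of 0.000519 and 0.000103). It was 2.67 ± 0.477 for FCGBP, whose level in SW620 differed between the 2 libraries with AFZC (13.7 and 5.97 CPM). It was -1.14 ± 0.244 for SOX9, -1.51 ± 0.373 for ELF3, 1.67 ± 0.411 for EGFR, -1.45 ± 0.27 for EZR and -0.96 ± 0.243 for ADAM17, with adjusted p of 0.00587 to 0.0299. Without 1 library at a time, PARM1, GALNT5, FCGBP and EZR stayed past the threshold (adjusted p up to 0.0381), and ELF3, EGFR, SOX9 and ADAM17 did not in at least 1 such fit (up to 0.13). HNF4A, a lineage regulator, differed too (-1.46 ± 0.284, adjusted p = 0.007), as did the markers KRT8 (-2.75), KRT18 (-2.51), KRT20 (3.57), VIL1 (-5.12) and VWF (1.51), with adjusted p of 0.000801 to 0.0339. These 6 were named after their values were seen.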

How the results depend on the processing

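Under each other tool, scaling, filter and design tried, 3 mucins were called in HCT116. The number was 3 or 4 in SW620 and for the interaction. For SW620 against HCT116 it was 7 under AFZC and 8 or 9 under 5-FU. The counts for HCT116, the interaction and the lines include MUC2 and MUC13, whose HCT116 values were known when the family was picked. That these 2 genes stayed called is therefore not read as support. Leaving out 1 library at a time gave 2 to 3 in HCT116, 0 to 3 in SW620 (1 without replicate 1 of AFZC, 0 without replicate 1 of 5-FU), 1 to 4 for the interaction (1 without replicate 1 of 5-FU in HCT116), 7 to 8 under AFZC and 6 to 9 under 5-FU. Where 1 library was left in a group, it was assumed to vary like the others. MUC13 was called higher in SW620 with library sizes alone (log2 fold change 0.92, adjusted p = 0.0102) and without the filter (0.0170), against adjusted p of up to 0.15 in the other settings. The cause was not tested.

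Library sizes in place of TMM factors moved the median log2 fold change over all genes in SW620 from 0.026 to 0.40 and the calls to 5141 higher and 445 lower, against 2482 and 1486. They moved the interaction to 2455 higher and 430 lower, against 1207 and 884, and SW620 against HCT116 under 5-FU to 4267 higher and 7714 lower, against 5675 and 6030, with a median of -0.34. With them, MUC1, MUC5B and MUC12, none called, turned to 0.15, 0.35 and 0.28 in SW620. Without 1 library at a time, uncalled values that changed sign were, in SW620, those of MUC1 (-0.54 to 0.0345), MUC3A (-1.05 to 0.0252), MUC5B (-0.72 to 0.42) and MUC12 (-0.55 to 0.62), in HCT116 those of MUC5AC (-0.46 to 2.34), MUC5B (-0.93 to 0.48) and MUC6 (-0.85 to 0.56), for the interaction those of MUC1 (-0.0295 to 0.69), MUC5AC (-1.06 to 1.74) and MUC5B (-0.64 to 0.89), and under AFZC that of MUC5B between lines (-0.15 to 1.38).

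With the replicate number as a block, 3, 3, 3, 7 and 9 mucins were called in the comparisons in the order above, the same genes as without it. Deviations of same-numbered libraries were weakly correlated and of mixed sign (correlations of -0.266 to 0.154 over 12949 genes). The numbers are taken as names only, and a shared origin of same-numbered libraries was not tested. With 2 libraries a group and 4 counts of MUC2 and of MUC13 in HCT116 with 5-FU, the size of their rise is not well determined: the fitted log2 value ran from 5.08 to 6.76 for MUC2 and from 3.92 to 8.99 for MUC13 without 1 library at a time, and the counting intervals do not cover that spread.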
